A study of Bos taurus with 15 samples.

Results

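The S100A genes of cattle were followed across 5 cell lineages in 15 single-cell RNA sequencing libraries. The genes were chosen by symbol alone: S100A4, S100A6, S100A8, S100A9, S100A10, S100A11, S100A12, and S100A14. S100A6 was not analysed here, because no row carries its symbol, so 7 of these 8 genes had values, among 27270 genes listed in each library. All 7 passed the filter on low counts that left 12292 genes for the tests between lineages. The animals were Holstein dairy cattle. Tissues of newborn (NB) animals came from 3 calves, and those of adult (AD) animals came from 1 lactating cow, with 1 library per tissue and stage. The NB libraries covered the salivary gland, the liver, 3 stomach chambers (abomasum, omasum, and reticulum), and 6 stretches of intestine, of which duodenum, jejunum, and ileum are small intestine and rectum, colon, and cecum are large intestine. The AD libraries covered jejunum, duodenum, colon, and cecum. No source used here names the calf behind an NB library, and the ages of the animals were not used here. The dissociation differed between the stages and between the NB forestomach, intestine, liver, and salivary gland. The AD duodenum and cecum were also dissociated with a different enzyme kit from the AD jejunum and colon. Stage, animal, and dissociation therefore cannot be told apart.

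S100 proteins are small calcium-binding proteins with a pair of EF-hand motifs. Most of them form dimers and change shape when calcium binds, which exposes a surface for partner proteins such as annexins. S100A8 and S100A9 join into calprotectin, an abundant neutrophil and monocyte protein that sequesters zinc and manganese from microbes, and S100A12 (calgranulin C) is a related metal-binding protein of the same cells. Squamous epithelium can also make these 3 proteins. S100A10 (p11) binds annexin A2 and needs no calcium for it. S100A4 binds nonmuscle myosin, S100A11 is known for its binding of annexin A1, and S100A14 is a member found mainly in epithelia. In the RefSeq annotation of the ARS-UCD2.0 assembly all 7 lie on chromosome 3. S100A8, S100A12, and S100A9 are direct neighbors there in this order, S100A11 lies next to S100A10, and S100A14 stands between S100A13 and S100A16. The counts rest on the older ARS-UCD1.2 assembly, so no coordinates are given.

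Barcodes were placed in a lineage by their unique molecular identifiers (UMIs) for a marker: EPCAM or KRT14 for epithelial, PTPRC without C1QA for leukocyte, C1QA for macrophage, COL1A2 for stromal, and PECAM1 for endothelial barcodes. The markers of the other lineages had to be at 0, with 2 exceptions. Macrophage barcodes could also carry PTPRC and PECAM1, and leukocyte barcodes could carry PECAM1. The 5 lineages held 95083 of the 119798 barcodes kept. A lineage was used in a library when it held at least 50 barcodes, and the few barcodes of smaller lineages were left out. This gave 13 epithelial, 13 leukocyte, 13 macrophage, 11 stromal, and 12 endothelial sums, 62 in all. The forestomach libraries (reticulum and omasum) gave no leukocyte or macrophage sum. Levels are given as CPM, the UMIs of a gene scaled to the summed UMIs of the lineage in a library, and they are compared within a gene only. Total UMIs per library ranged from 17707625 to 129458578, and the median per kept barcode ranged from 3553 to 8971. Other markers fixed for each lineage were found in it. The summed CPM of 7 other epithelial markers in epithelial barcodes was 1244 to 9717, and that of 6 other macrophage markers in macrophage barcodes was 5321 to 18759. The exception was the AD duodenum, whose PECAM1 barcodes held only 47.2 CPM of the 6 other endothelial markers against a median of 4160 over the 12 libraries, so that these 111 barcodes carry the label without its markers. In the AD macrophage barcodes the plasma cell transcript JCHAIN reached 10960 to 18908 CPM, and its part in the values below was not tested. Any 2 libraries shared at most 84 barcode sequences (1.02% of the smaller library).

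**Figure D1:**
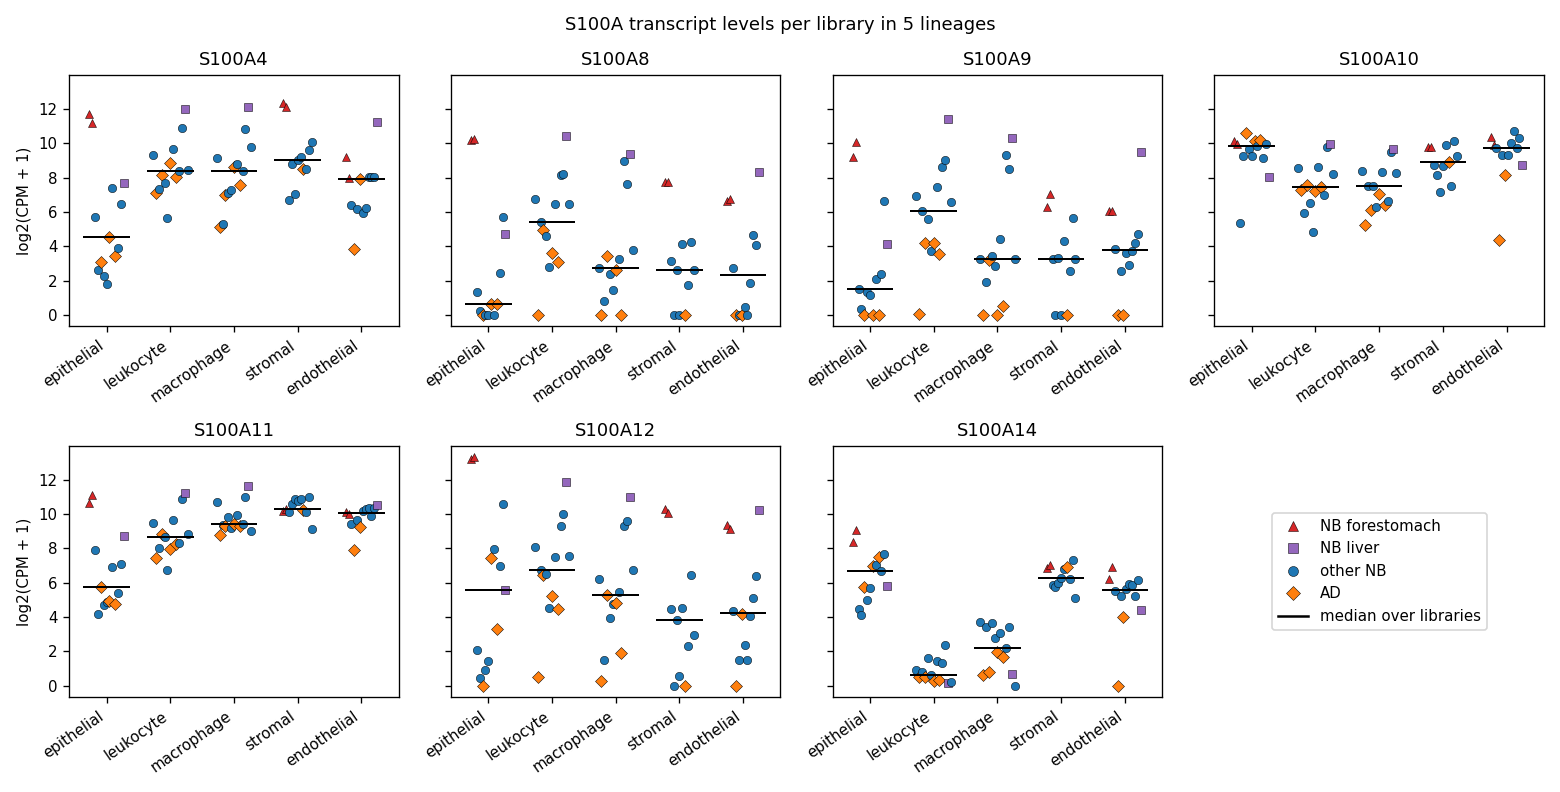
Levels of 7 S100A members, as log2(CPM + 1), in the 5 lineages. Each point is 1 library with at least 50 barcodes of the lineage (triangles, NB reticulum and omasum; squares, NB liver; circles, other NB; diamonds, AD), and lines are medians over libraries. S100A14 was near 0 in leukocyte barcodes, and the calgranulins S100A8, S100A9, and S100A12 were high in forestomach epithelium and in leukocytes of the NB liver.

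To ask in which lineage each member was higher or lower, the summed UMIs were compared in 1 fit over all libraries with library as a term, each lineage against the mean of the other 4. A member was called at a fold of at least 2 and an adjusted p under 0.05 (edgeR's quasi-likelihood test, Benjamini-Hochberg over 12292 genes). Since libraries share 3 calves and 1 cow, these p-values are too small to that extent. The calgranulins and S100A4 were higher in leukocytes, S100A14 and S100A10 were higher in epithelium, and S100A14, S100A11, and S100A4 were higher in stroma. Each member was called higher in at least 1 lineage and lower in at least 1 other. With each lineage set against the mean of the other 4, a higher value in 1 lineage forces a lower one elsewhere. Calls in both directions are thus partly fixed by the design, and the share of all genes with both is not given.

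Among leukocyte barcodes, 4 of 7 members were called higher, against 13.1% of all genes tested, and 1 was called lower, against 19.0%. S100A8 ranged from 0 CPM in the AD duodenum through a median of 41.4 CPM to 1353 CPM in the NB liver over 13 libraries. It was 4.06 higher on the log2 scale in leukocytes than in the mean of the other lineages (SE 0.46, edgeR adjusted p = 2.6e-10). S100A9 had a median of 64.5 CPM and reached 2678 CPM in the NB liver, with a log2 difference of 3.68 (SE 0.45, edgeR adjusted p = 1.62e-09). S100A12 had a median of 107 CPM and reached 3763 CPM in the same library, with a log2 difference of 2.96 (SE 0.49, edgeR adjusted p = 9.83e-07). The NB liver was thus the highest library for all 3 calgranulins and the AD duodenum the lowest, at 0, 0.0374, and 0.448 CPM. S100A4 had a median of 328 CPM between 49.1 in the NB ileum and 4029 in the NB liver, and its log2 difference was 1.48 (SE 0.36, edgeR adjusted p = 4.24e-04). S100A14 stood at 0.107 to 4.17 CPM in the 13 libraries and was lower by a log2 difference of -4.91 (SE 0.38, edgeR adjusted p = 3.95e-15). The values of S100A10 (-0.82) and S100A11 (0.04) were not called. Leaving out each library in turn kept these 5 calls in each of 15 fits, whereas without the library term only 2 were left, S100A9 and S100A14 (1722 genes of 12292 higher, or 14%, and 18.8% lower). When any barcode with PTPRC was taken, 3 were called higher (7.22% of all genes) and 1 lower (17.8%), and S100A4 was no longer called (0.77).

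Among epithelial barcodes, 2 of 7 members were called higher (15.5% of all genes) and 4 were called lower (18.5%). S100A14 was present in all 13 libraries, between 16.3 CPM in the NB duodenum and 535 CPM in the NB omasum, with a log2 difference of 3.49 (SE 0.25, edgeR adjusted p = 9.79e-17). S100A10 lay at 257 to 1522 CPM in 12 of the libraries and at 39.4 CPM in the NB abomasum, with a log2 difference of 1.50 (SE 0.30, edgeR adjusted p = 2.14e-05). S100A4 (log2 difference -2.67, SE 0.52) and S100A11 (-2.64, SE 0.46) were lower, with edgeR adjusted p of 1.58e-05 and 2.41e-06. S100A8 (-1.44, SE 0.62, edgeR adjusted p = 0.0378) and S100A9 (-1.62, SE 0.63, edgeR adjusted p = 0.0225) were called lower too. The S100A8 call was lost without any 1 of 8 libraries (NB abomasum, NB duodenum, AD jejunum, NB jejunum, NB ileum, NB cecum, NB colon, or NB liver; adjusted p up to 0.0846), and the S100A9 call without the NB duodenum or the NB liver (up to 0.0618). S100A12 was not called (0.96, SE 0.60, edgeR adjusted p = 0.153). The pair of forestomach libraries held the highest epithelial levels of S100A4, S100A8, S100A9, S100A11, S100A12, and S100A14. Without the reticulum and omasum, the log2 differences were -3.44 for S100A4, -3.44 for S100A11, -2.59 for S100A8, and -2.72 for S100A9, and all 4 were called. Without the library term, S100A8 and S100A9 turned to 1.70 and 0.79, and S100A4 was no longer called (-0.24).

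Among macrophage barcodes, 2 of 7 members were called higher (12.5% of all genes) and 2 lower (10.7%). S100A8 (log2 difference 1.45, SE 0.53) and S100A9 (1.24, SE 0.53) were higher, with edgeR adjusted p of 0.0203 and 0.047. Both calls ended without the NB colon, at log2 differences of 0.83 and 0.52, and that of S100A9 also without the AD jejunum, NB ileum, NB rectum, or NB liver. S100A10 (-1.30, SE 0.33) and S100A14 (-2.04, SE 0.32) were lower, with edgeR adjusted p of 9.64e-04 and 6.44e-07. S100A11 had a median of 675 CPM and a log2 difference of 0.99 (SE 0.31, edgeR adjusted p = 0.00733), just under the required fold of 2. S100A4 (0.91) and S100A12 (1.04) were not called. When any barcode with C1QA was taken, 0 members were called in macrophages, where 5.05% of 13621 genes were called higher and 0.0808% lower. With 2 C1QA UMIs all 7 were called, 5 higher and 2 lower, where 15.1% of 12320 genes were called higher and 15.9% lower. Without the library term S100A10 and S100A14 were called lower and 0 members higher (9.87% and 12.4% of all genes).

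The NB colon macrophage value rested on few barcodes. Of 1547 S100A8 UMIs in 525 macrophage barcodes of the NB colon, 99.2% lay in 4 barcodes, and of 1902 S100A12 UMIs 98.7% lay in 6. In the 5765 macrophage barcodes of the NB liver, 513 barcodes with at least 10 S100A8 UMIs held 90.3% of 26906 UMIs. A level in the NB colon thus came from far fewer barcodes than one in the NB liver.

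Among stromal barcodes, 3 of 7 members were called higher (16.6% of all genes) and 2 lower (15.1%). S100A14 (log2 difference 2.18, SE 0.26), S100A11 (1.15, SE 0.34), and S100A4 (1.12, SE 0.42) were higher, with edgeR adjusted p of 1.1e-09, 0.00357, and 0.018. The call of S100A4 was lost without the NB duodenum or the NB ileum, its lowest value being 0.82. S100A12 (-2.62, SE 0.67) and S100A9 (-2.12, SE 0.62) were lower, with edgeR adjusted p of 7.96e-04 and 0.00301, while S100A8 (-1.40) and S100A10 (-0.16) were not called. S100A4 ranged widely within stroma, from 101.2 CPM in the NB abomasum to 4437 CPM in the NB omasum and 5165 CPM in the NB reticulum. Among endothelial barcodes, S100A14 was called higher (1.28, SE 0.27, edgeR adjusted p = 1.29e-04), against 11.9% of all genes. S100A8 (-2.66, SE 0.65) and S100A12 (-2.34, SE 0.67) were called lower, against 14.1%, with edgeR adjusted p of 6.56e-04 and 0.00311. S100A4 (-0.84), S100A9 (-1.17), S100A10 (0.78), and S100A11 (0.45) were not called in endothelium. The 3 endothelial calls stayed without the AD duodenum and without any other single library, but 0 members were called when any barcode with PECAM1 was taken (7.75% of all genes higher and 10.2% lower) and 1, S100A14, without the library term (11.3% and 10.3%). In stroma each of these settings left 1 call, S100A14 (13.5% and 7.43% of all genes with any COL1A2 barcode, and 15.9% and 13.6% without the library term).

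**Figure D2:**
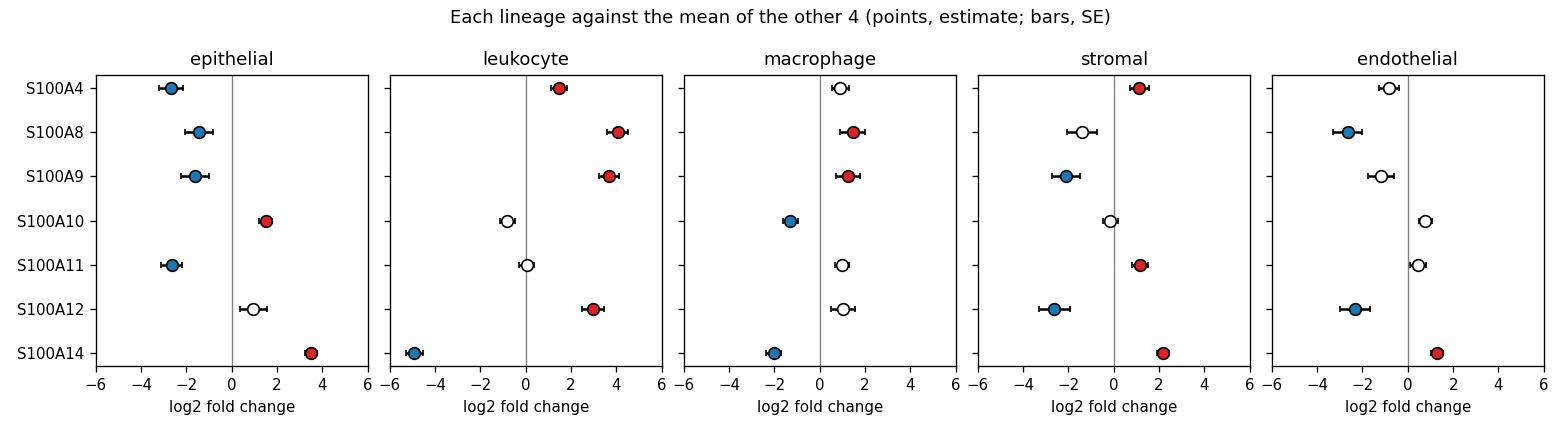
Log2 fold change of each S100A member in a lineage against the mean of the other 4, from the edgeR fit over 15 libraries; bars are SE. Red points were called higher and blue points lower, at a fold of at least 2 and an adjusted p under 0.05, and white points were not called. S100A14 ran from 3.49 in epithelial to -4.91 in leukocyte barcodes.

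Ordered by fitted level, S100A14 fell from epithelial to stromal (log2 step 1.05, edgeR adjusted p = 0.0092), endothelial, macrophage (2.65, edgeR adjusted p = 6.72e-08), and leukocyte barcodes (2.30, edgeR adjusted p = 1.13e-05), and only the step from stromal to endothelial (0.72, edgeR adjusted p = 0.11) was not told apart. For S100A8 the order was leukocyte, macrophage, stromal, epithelial, and endothelial, with the upper 2 steps told apart (log2 2.09 and 2.28, edgeR adjusted p = 0.00618 and 0.00989). S100A9 also descended from leukocyte to macrophage (1.95, edgeR adjusted p = 0.0107), and the lower 3 lineages were not told apart. For S100A12, the step from leukocyte to macrophage barcodes (1.54, edgeR adjusted p = 0.0525) was not told apart, and macrophage and epithelial barcodes were next to each other (0.06, edgeR adjusted p = 0.949), above endothelial barcodes (2.64, edgeR adjusted p = 0.00491). For S100A11 only the last step, from leukocyte to epithelial, was told apart (2.14, edgeR adjusted p = 2.31e-04). For S100A4 the steps from leukocyte to stromal and on to macrophage barcodes were not told apart, whereas those from macrophage to endothelial (1.40, edgeR adjusted p = 0.0206) and from endothelial to epithelial (1.46, edgeR adjusted p = 0.0278) were. For S100A10 no neighboring lineages were told apart.

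The pattern of each member was set beside those of 10655 genes with at least 10 CPM in at least 5 sums. Over the 62 sums of library and lineage, S100A8 was most like S100A9 (Pearson's r of log2(CPM + 1) 0.95) and S100A12 (0.91), its neighbors on the chromosome. S100A9 was most like S100A8 (0.95) and S100A12 (0.87). S100A10 was most like ANXA2 (0.84), the gene of its annexin partner, and PLEC (0.80), which encodes the cytoskeletal linker plectin. S100A11 was most like FLNA (0.88), which encodes the actin cross-linker filamin A, and MYADM (0.86). S100A4 was most like S100A11 (0.79) and ANXA1 (0.75). S100A14 was most like CTTN (0.95), which encodes the actin regulator cortactin, and TACC2 (0.94). S100A11 and S100A10, although next to each other on the chromosome, had r of 0.10. Sums of 1 library share their depth and their free RNA, so these values are descriptions.

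In the fixed list of 25 other S100 genes and partners, 24 had a row and 22 were tested. In epithelium 5 of the 22 were called higher and 6 lower (15.5% and 18.5% of all genes), led by S100G (5.78), which encodes the intestinal calcium carrier calbindin-D9k, S100A2 (5.36), and LTF (4.2), which encodes lactoferrin. In leukocytes 3 were called higher and 9 lower (13.1% and 19.0%), led by S100A16 (-5.14), S100A7 (3.96, at most 6.62 CPM), and the scavenger receptor gene CD36 (-3.01). In macrophages 5 were called higher and 2 lower (12.5% and 10.7%), led by S100A7 (2.22, at most 4.58 CPM), LCN2 (1.92), which encodes the siderophore-binding protein lipocalin 2, and CD36 (1.79). In stroma 4 were called higher and 4 lower (16.6% and 15.1%), led by S100A5 (-2.58), S100A7 (-2.53), and ANXA6 (2.15). In endothelium 8 were called higher and 3 lower (11.9% and 14.1%), led by S100A1 (4.21), CD36 (4.18), and S100B (3.89). The median log2 difference of the members was -1.44 in epithelium, 1.48 in leukocytes, 0.99 in macrophages, -0.16 in stroma, and -0.84 in endothelium. Over all genes tested the medians lay between -0.12 and 0.10.

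The epithelium of the forestomach is keratinized and squamous, whereas that of the intestine is a single columnar layer. NB epithelial barcodes of the reticulum and omasum were therefore set beside those of the 6 NB intestinal libraries. In 6 of 7 members both forestomach libraries lay above all 6 intestinal ones with medians at least 2-fold apart. Among 8746 genes with at least 10 CPM in any of these libraries, 13.8% did so, and 14.5% did the reverse. No test was made, because tissues are not replicates of a group. S100A12 stood at 9521 CPM in the reticulum and 10212 CPM in the omasum. In the small intestine it stood at 0.386 CPM in duodenum, 0.858 CPM in jejunum, and 1.77 CPM in ileum. In the large intestine the rectum had 1560 CPM, the cecum 249 CPM, and the colon 126 CPM. The values thus parted the small intestine from the large intestine as well. S100A8 stood at 1180 and 1226 CPM in the forestomach and at 0 to 51.7 CPM in the intestine, where the rectum was highest and the next library, the colon, had 4.51 CPM. S100A9 stood at 591 and 1066 CPM against 0.289 to 99.1 CPM. S100A4 stood at 3287 and 2362 CPM against 2.47 to 170 CPM, and S100A11 stood at 1575 and 2202 CPM against 17.2 to 138 CPM. The medians of these 5 genes were 53.2 to 1115-fold apart on the CPM + 1 scale. S100A14 differed less, with 327 and 535 CPM against 16.3 to 203 CPM. S100A10 was the member that did not meet the rule: its 1137 and 1000 CPM lay above the intestinal range of 569 to 996 CPM, but the medians were 1.50-fold apart.

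Of the 24 other S100 genes and partners, 17 reached 10 CPM in any of these libraries, and of those 6 lay above in the forestomach in this way and 5 below. S100A2 had 5048 and 5299 CPM there against 10.6 to 1374 CPM, S100A7 (psoriasin) had 156 and 44.1 CPM against 0 in all 6 intestinal libraries, and ANXA1 had 2035 and 1974 CPM against 20.9 to 332 CPM. S100G went the other way, with 0.124 and 0.0224 CPM against 184 to 19147 CPM. These 4 genes were chosen for display after their values were seen. All 7 members were also above the NB abomasum, where epithelial S100A12 was 3.27 CPM, S100A10 39.4 CPM, S100A4 51.1 CPM, and S100A11 234 CPM.

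**Figure D3:**
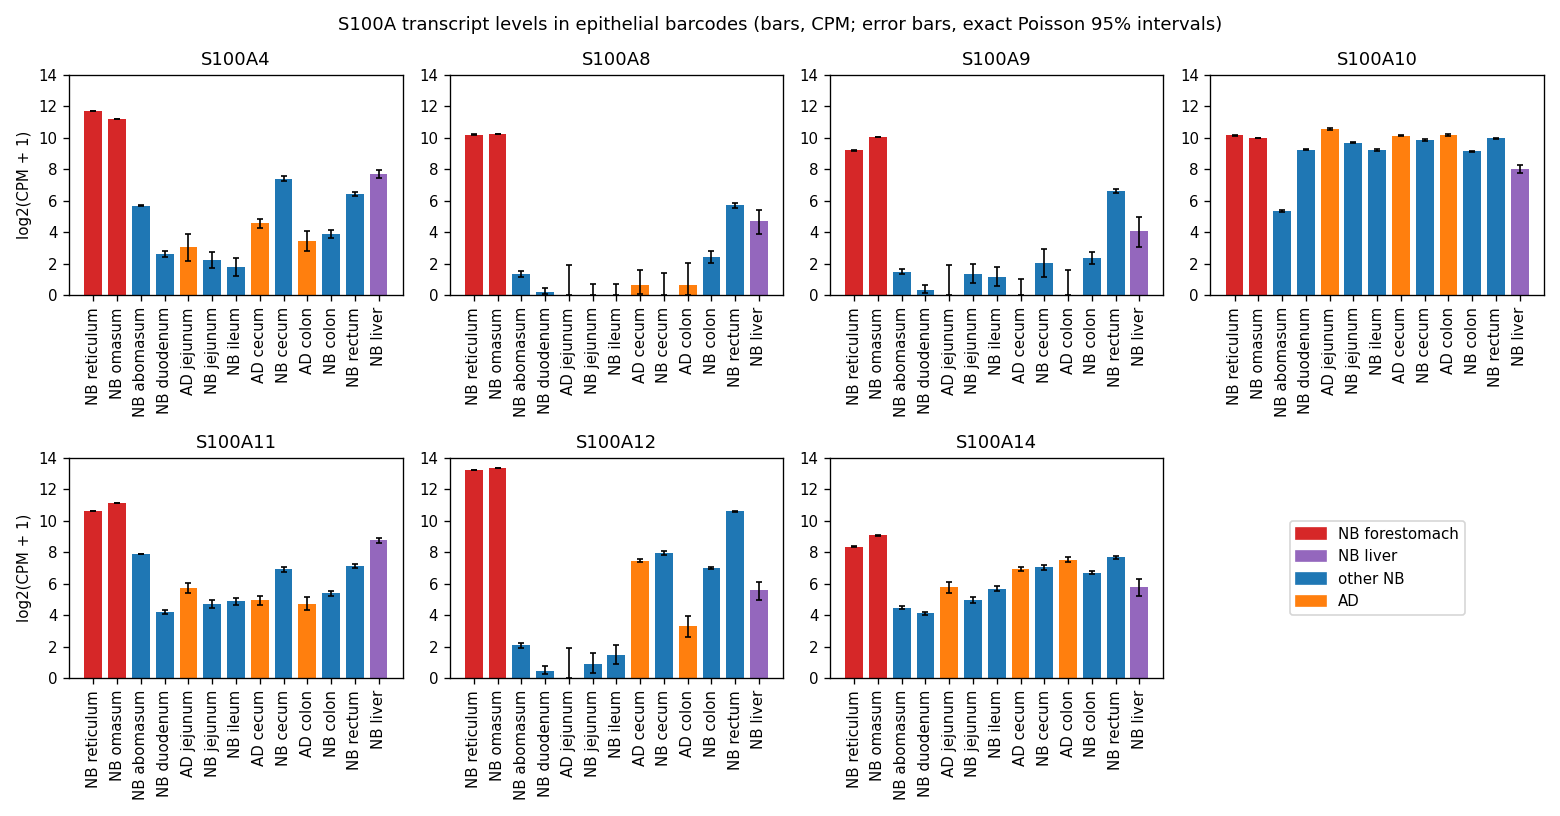
S100A levels in epithelial barcodes of 13 libraries, as log2(CPM + 1); error bars are exact Poisson 95% intervals, which cover counting error only. Red bars are the NB reticulum and omasum, blue bars other NB tissues, orange bars AD tissues, and purple bars the NB liver. S100A12 stood at 9521 and 10212 CPM in the forestomach, stood at 126 to 1560 CPM in the NB large intestine, and was under 2 CPM in the NB small intestine.

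Within forestomach epithelium, levels were followed along the share of UMIs from a basal list (KRT14, KRT5, KRT15, COL17A1, ITGA6, ITGB4, and TP63). The suprabasal list was KRT1, KRT10, KRT4, KRT13, KRT6A, KRT36, DSG1, TGM1, TGM3, IVL, CNFN, KRTDAP, SBSN, CALML5, and SPRR3. KRT14 was also a marker that placed barcodes in the lineage, held by 5981 barcodes of the reticulum and 8916 of the omasum. Keratinocytes leave the basal layer, marked by KRT5, KRT14, and KRT15, and move outward as they mature. The barcodes were put in 4 bins of like size by the share of basal-list UMIs among basal-list and suprabasal-list UMIs; a bin is a range of this score, not a cell type, and most barcodes lay near its upper end (the least basal bin began below 89.3% in the reticulum and 81.7% in the omasum). S100A12 went from 3075 CPM in the most basal bin through 5848 and 9746 to 17615 CPM in the least basal bin of the reticulum, and from 2322 through 3868 and 8008 to 23070 CPM in the omasum. S100A8 went from 277 to 2776 CPM in the reticulum and from 132 to 3525 CPM in the omasum. S100A9 went from 204 to 1410 CPM and from 105 to 3109 CPM. S100A14 went from 199 to 595 CPM and from 146 to 1310 CPM, with most of the difference between the last 2 bins. S100A11 (1070 to 1980 CPM and 916 to 3985 CPM) and S100A10 (805 to 1329 CPM and 597 to 1533 CPM) went the same way. S100A4, in contrast, was lowest in the least basal bin of both libraries. From the most to the least basal bin it stood at 3616, 3849, 3631, and 2233 CPM in the reticulum, lower only in the last. In the omasum it fell at each step, from 3015 through 2837 and 2494 to 1377 CPM. The median UMIs per barcode also differed, from 8445 to 11903 in the reticulum and from 8373 to 12029 in the omasum. The proliferation gene MKI67 was lowest in the most basal bin, at 73, 127, 206, and 180 CPM in the reticulum and 102, 145, 159, and 120 CPM in the omasum. The part of depth and of cycling cells was not tested. The least basal bin lay on the same side of the most basal bin in both libraries for each of the 7 members.

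**Figure D4:**
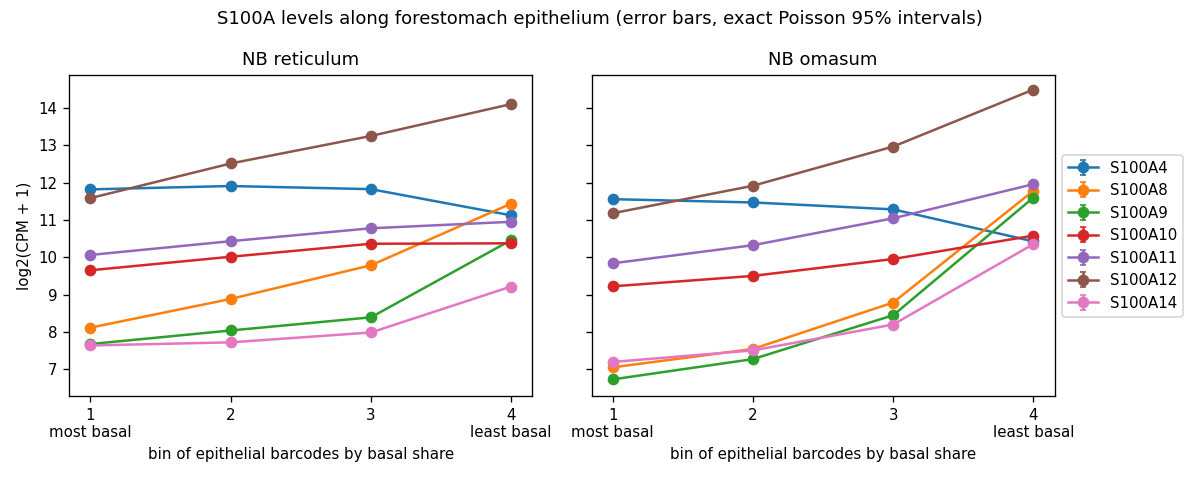
S100A levels, as log2(CPM + 1), in 4 bins of NB reticulum and omasum epithelial barcodes, from the highest to the lowest share of basal-list UMIs; error bars are exact Poisson 95% intervals, most of them smaller than the points. S100A8, S100A9, S100A12, and S100A14 were highest in the least basal bin of both libraries, and S100A4 was lowest there.

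RNA set free from lysed cells enters droplets of other lineages, so levels in minor lineages of a library were read against genes of its main lineage. In forestomach stromal barcodes, S100A12 was at 13.0% of its epithelial level in the reticulum and 10.6% in the omasum, and S100A8 was at 17.9% and 17.3%. The keratin genes KRT5 and KRT15, which stroma should lack, were at 6.44 to 8.54% of their epithelial levels in the same barcodes. S100A2, a gene called higher in epithelium, was at 10.7% in the reticulum and 11.4% in the omasum, close to S100A12. S100A4, in contrast, was at 157% and 188% of its epithelial level in stroma. In endothelial barcodes S100A12 was at 7.04% and 5.43%, beside 3.53 to 4.38% for the pair of keratin genes and 7.01% and 6.06% for S100A2. S100A11 was at 45.9 to 74.9% and S100A10 at 76.5 to 114% in these 2 lineages, far above the keratin shares. S100A14 was at 34.6% and 24.2% in stroma and at 22.3% in endothelium of both libraries. In the 77 endothelial barcodes of the NB liver, S100A12 was at 32.4% of the leukocyte level and S100A8 at 23.2%, where the leukocyte genes CORO1A, CD52, CD53, and RAC2 were at 23.7 to 68.1%. Few of these barcodes made up the level: 6 held 94.8% of the 477 S100A12 UMIs, and 2 held 90.2% of the 123 S100A8 UMIs. The part of free RNA and of mixed droplets in these values was not tested.

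In large intestinal epithelium S100A12 was measured with little or no S100A8 and S100A9 outside the rectum. In the NB cecum, S100A12 stood at 249 CPM (95% interval 229 to 271) with S100A8 at 0 and S100A9 at 3.22 CPM. In the AD cecum S100A12 stood at 175 CPM beside 0.559 CPM of S100A8 and 0 of S100A9, whereas the AD colon had 8.91 CPM of S100A12. The cecum levels rested on few barcodes, since 10 of 299 held 70.3% of 627 S100A12 UMIs in the AD cecum. In the NB cecum 10 of 205 held 57.7% of 542, whereas 10 barcodes held 29.3% in the NB colon and 22.0% in the NB rectum. After each barcode was thinned to 1000 UMIs, 40.1% of 536 epithelial barcodes of the NB rectum held an S100A12 UMI (exact binomial 95% interval 35.9 to 44.4), 13.2% of 204 in the NB cecum (8.91 to 18.7), and 8.36% of 754 in the NB colon (6.48 to 10.6). The shares in stromal barcodes of the same libraries, read as background, were 4.64%, 1.25%, and 0.518%. Without thinning, the epithelial shares were 70.9%, 40.5%, and 38.5% and the stromal shares 18.7%, 4.05%, and 2.55%, at median depths of 7368 to 9602 and 5776 to 7173 UMIs.

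In the libraries with at least 20 epithelial barcodes with 2 or more S100A12 UMIs, all other genes were ranked by their ratio to barcodes without S100A12. This ranking was added after the values were seen, its members had a higher median depth (15088 to 20568.5 against 4759 to 10479 UMIs), and it has no test. FABP1, which encodes the enterocyte fatty acid-binding protein, and AQP8, a water channel gene, were among the first 15 in the AD cecum, NB cecum, NB colon, and NB rectum. CA1, which encodes a carbonic anhydrase of surface colonocytes, was among them in all of these except the NB rectum. When epithelial barcodes were split by any UMI of CA1 or AQP8, S100A12 stood at 459 CPM with and 100.7 CPM without in the NB cecum. The same values were 498 and 56.1 CPM in the NB colon, 2408 and 649 CPM in the NB rectum, 340 and 43.7 CPM in the AD cecum, and 15.1 and 5.83 CPM in the AD colon. Since CA1 and AQP8 were picked from the ranking in 4 of these libraries, the split restates it there and adds no support. Median depths with and without were 15532 and 5852 UMIs in the NB rectum and 15831 and 10418 UMIs in the AD cecum, but 9279 and 9252.5 UMIs in the NB colon. In the NB rectum S100A8 took the other direction, at 7.40 CPM in the 209 barcodes with CA1 or AQP8 and 99.4 CPM in the 330 without, but 10 of the 539 barcodes held 83.2% of its 297 UMIs. S100A9 went the same way in this split, at 5.71 and 199.5 CPM, with 10 barcodes holding 87.2% of its 569 UMIs, although it was among the first 15 genes ranked with S100A12 there (140 CPM in barcodes with 2 or more S100A12 UMIs and 3.95 CPM in those without). There the genes ranked with S100A12 also held DEFB4A and TAP, a pair of beta-defensin genes, at 434 and 365 CPM in the 291 barcodes with 2 or more S100A12 UMIs.

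The leukocyte class holds lymphocytes and granulocytes, so its barcodes were divided by CD3E (T cells), CD79B or MS4A1 (B cells), and CSF3R, the receptor gene for granulocyte colony-stimulating factor found in neutrophils and monocytes. Subclasses with at least 20 barcodes were kept, which left 13, 11, and 8 libraries. In CSF3R barcodes S100A8 ranged from 0 CPM in the AD duodenum through a median of 482 CPM to 7671 CPM in the NB colon. In CD3E barcodes its median was 0.487 CPM and its highest value 81.1 CPM, in the NB liver, and in B cell barcodes these were 0.154 and 20.9 CPM. S100A9 had medians of 840, 0.719, and 0 CPM, and S100A12 had medians of 1020, 2.51, and 0.617 CPM in CSF3R, CD3E, and B cell barcodes. In 7 of the 8 libraries the CSF3R barcodes held 112 to 7671 CPM of S100A8, and the 53 of the AD duodenum held none of S100A4, S100A8, S100A9, or S100A12. These are levels of a sum, not of each barcode. In the NB duodenum, NB jejunum, AD jejunum, and NB cecum 71, 44, 171, and 70 barcodes were CSF3R barcodes. Only 6, 13, 29, and 34 leukocyte barcodes held any S100A8 UMI there, so most CSF3R barcodes held none. In the NB colon and NB rectum 54 and 259 leukocyte barcodes held one, beside 43 and 167 CSF3R barcodes. The neutrophil receptor gene CXCR2 had 0 to 5 UMIs in the leukocyte barcodes of each library, so neutrophils were not identified by it.

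The other members crossed these subclasses differently. S100A4 had a median of 543 CPM in CSF3R, 268 CPM in CD3E, and 20.9 CPM in B cell barcodes. S100A10 was highest by median in CD3E barcodes (342 CPM, against 149 CPM in CSF3R and 18.0 CPM in B cell barcodes). These medians are over different libraries: within libraries S100A10 was higher in CD3E than in CSF3R barcodes in 6 of 8, and lower in the NB liver (957 and 1766 CPM) and the NB colon (180 and 283 CPM). S100A11 had medians of 807, 499, and 126 CPM, but within libraries it was higher in CSF3R than in CD3E barcodes in only 4 of 8. S100A4 was higher in CSF3R than in CD3E barcodes in 6 of 8, and lower in the NB cecum (505 and 1139 CPM) and the AD duodenum (0 and 174 CPM). B cell barcodes thus had the lowest medians of S100A4, S100A10, and S100A11. The NB liver had the highest S100A4 in all 3 subclasses, at 8794, 1838, and 454 CPM. Leukocyte barcodes with none of these markers, in 13 libraries, had a median S100A4 of 682 CPM. Within libraries their S100A4 was above that of CSF3R barcodes only in the NB cecum (841 and 505 CPM) and the AD duodenum (49.8 and 0 CPM). They had medians of 19.3 CPM of S100A8, 26.0 CPM of S100A9, and 80.9 CPM of S100A12. In the NB liver the 1232 barcodes with none of the markers held 805 CPM of S100A8, 1669 CPM of S100A9, and 2546 CPM of S100A12. In the NB cecum only 48 of 1058 leukocyte barcodes held any S100A9 UMI, and 22 of them held 98.0% of 1928 UMIs. The 586 barcodes there with none of the markers held 915 S100A9 UMIs against 1008 UMIs in 70 CSF3R barcodes. The calgranulins were thus not limited to barcodes in which CSF3R was detected.

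Leukocyte barcodes with any S100A8 UMI made up 25.1% in the NB liver and 18.9% in the NB rectum, and at most 4.16% in the other 11 libraries (17.5%, 12.9%, and at most 3.18% after thinning to 1000 UMIs). As a background, in the NB liver 11.96% of 92 epithelial and 10.4% of 77 endothelial barcodes also held an S100A8 UMI (3.26% and 5.19% after thinning), at median depths of 5302.5 and 3530 UMIs against 3560 UMIs in leukocytes. In the NB rectum the shares were 2.70% in stromal and 2.89% in endothelial barcodes (0.940% and 0.646% after thinning), at 5776 and 5612 UMIs against 7905 UMIs in leukocytes. In the NB liver 661 leukocyte barcodes held 2 or more S100A8 UMIs, in the NB rectum 212, in the NB colon 42, in the NB cecum 25, and in the NB salivary gland 21. Their summed CPM of the monocyte markers was 3499 to 6796, against 7.80 to 206 in leukocyte barcodes without S100A8. That of the neutrophil markers was 7058 against 225 in the NB cecum, where it exceeded the monocyte sum of 5257. In the other 4 libraries it was 556 to 3290 against 6.05 to 255. The fixed neutrophil list was CSF3R, CXCR2, CXCR1, MMP9, CXCL8, and PGLYRP1. Since CSF3R is also found in monocytes and CXCR2 was nearly absent, this sum does not tell neutrophils from monocytes in these barcodes. These barcodes were chosen by a measured value, and their T cell markers were at 0 to 255 against 292 to 1372. Median depths were 1682.5 to 7209 UMIs with and 3105 to 10354 UMIs without S100A8. S100A4 (2403 to 9346 CPM) and S100A11 (3158 to 4860 CPM) were also high in these barcodes in all 5 libraries, against 275 to 2035 and 239 to 1747 CPM in those without S100A8.

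**Figure D5:**
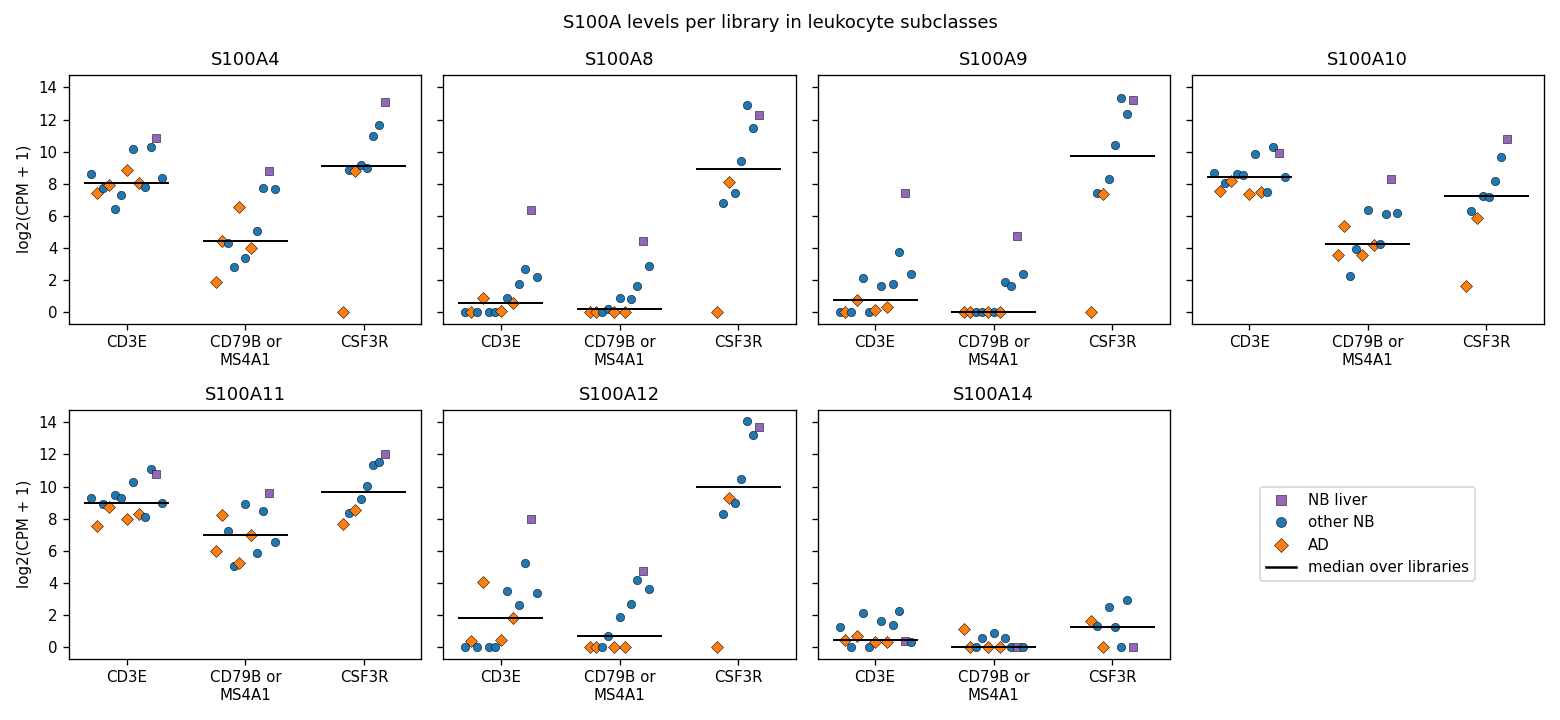
S100A levels, as log2(CPM + 1), in leukocyte barcodes with CD3E, with CD79B or MS4A1, or with CSF3R, each without the other markers. Each point is 1 library with at least 20 such barcodes (squares, NB liver; circles, other NB; diamonds, AD), and lines are medians. S100A8, S100A9, and S100A12 were higher in CSF3R than in CD3E barcodes in 7 of 8 libraries and higher than in B cell barcodes in the 6 of these that had both, and the AD duodenum held none of them in CSF3R barcodes.

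NB and AD levels were set side by side in leukocytes and macrophages of the duodenum, jejunum, cecum, and colon. There was 1 library per tissue and stage, so no test was made, and intervals cover counting error only. A higher share of cells of a type and more RNA per cell cannot be told apart in these sums alone. In leukocytes, S100A9 was the member with a ratio of at least 2 in the same direction in all 4 tissues (1 of 7; 4.25% of 8488 genes lay lower in AD in this way, and 6.1% higher). Its NB and AD levels were 64.5 and 0.0374 CPM in duodenum, 47.8 and 16.9 CPM in jejunum, 176 and 17.3 CPM in cecum, and 384 and 10.7 CPM in colon. The NB to AD ratio was 2.83 in jejunum (95% interval 2.35 to 3.39), 10.2 in cecum (9.21 to 11.3), and 35.8 in colon (31.9 to 40.3). In duodenum, where the AD value is 1 UMI, it was 1728 (306 to 68626). S100A12 was 4.94-fold lower in AD in cecum and 29.9-fold lower in colon, but 1.03-fold in jejunum. S100A8 was 7.62-fold lower in cecum and 38.1-fold lower in colon, whereas in jejunum it was 23.3 CPM in NB and 29.7 CPM in AD. The calgranulin UMIs were held by few barcodes at both stages. In the cecum 48 of 1058 NB and 14 of 6688 AD leukocyte barcodes held any S100A9 UMI. The same counts were 65 of 1297 and 10 of 6608 in the colon, and 15 of 434 and 23 of 3340 in the jejunum. The part of these shares in the ratios was not tested. All 176 S100A9 UMIs of the NB duodenum lay in 6 of 292 leukocyte barcodes, so the duodenum ratio rests on 6 NB barcodes and 1 AD UMI. In the NB jejunum 10 of 434 barcodes held 96.3% of 187 UMIs, in the NB colon 40 of 1297 held 99.0% of 3450, and in the AD cecum 10 of 6688 held 99.2% of 480. When any barcode with PTPRC was taken, no member met the rule, and the share of all genes in that setting is not given. Most AD leukocyte barcodes were T cells: CD3E barcodes without the other markers numbered 6155 of 6688 in the AD cecum and 307 of 1058 in the NB cecum. The part of this makeup in the ratios was not tested. S100A4 differed less than 2-fold in all 4 tissues, from 1.75-fold lower in AD in cecum to 1.40-fold higher in jejunum. S100A14 was at most 2.05 CPM in all 8 of these sums.

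In macrophages no member met this rule (0 of 7; 2.13% of 8695 genes higher in AD and 3.81% lower). S100A11 was 1.08- to 1.48-fold lower in AD in the 4 tissues. S100A10 was 4.83-fold lower in duodenum, 2.59-fold in jejunum, and 2.42-fold in cecum, but 1.21-fold in colon (82.7 and 99.8 CPM). S100A4 was 1.09- to 1.78-fold lower. S100A14 was lower in AD in all 4 tissues at low levels, 16.6-fold in duodenum (3 AD UMIs), 15.5-fold in jejunum (18), 2.60-fold in cecum (4), and 1.62-fold in colon (5). Its intervals included 1 in cecum (0.971 to 9.81) and colon (0.518 to 5.93). S100A9 stood at 642 CPM in the NB colon and at 1 UMI in the AD colon, at 20.4 and 0 CPM in cecum, and at 2.83 and 0 CPM in duodenum. In jejunum S100A9 was 1.21-fold lower in AD (0.999 to 1.46). S100A8 and S100A12 were higher in AD in jejunum (9.78 and 4.16 CPM, and 38.6 and 14.3 CPM) and lower in the other 3 tissues. In the AD jejunum 5 of 5250 barcodes held 90.9% of 230 S100A8 UMIs, and 17 held 91.7% of 908 S100A12 UMIs. S100A8 rested on 5 NB and 0 AD UMIs in duodenum, and its interval in cecum included 1 (0.797 to 4.41, with 7 AD UMIs). With at least 2 C1QA UMIs required, 1 member met the rule, but the share of all genes that did so in that setting is not given. In epithelium, S100A10 was 1522 CPM in the AD and 822 CPM in the NB jejunum, 1122 and 926 CPM in cecum, and 1175 and 569 CPM in colon, from 131, 299, and 179 AD barcodes. The AD duodenum, with 40 epithelial barcodes under the minimum of 50, went the other way, at 385 CPM against 607 CPM in NB.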

How the data were processed

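Whole-number UMI counts per gene and barcode were deposited by the authors for 15 libraries, made with 10x Genomics 3′ chemistry and Cell Ranger 3.1.0 (submitters' processing notes) on the ARS-UCD1.2 genome, without normalization. The annotation release is not given in the sources used here. Barcodes were kept if they held 500 to 4000 genes, fewer than 50000 UMIs, and less than 40% mitochondrial UMIs, and the highest Scrublet scores were removed at 0.8% per 1000 barcodes, which left 119798 of 172405. The study's manual removal of mixed clusters was not repeated. Free RNA was not subtracted.

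UMIs were summed per library and lineage and tested with edgeR 4.0.16 (TMM factors, filterByExpr, library and lineage as terms, quasi-likelihood F test) in R 4.3.3; DESeq2 1.42.0 was an alternative. On simulated counts of 12528 genes for the epithelial comparison, 200 of 200 genes changed 4-fold were recovered and 0 unchanged genes were called. This does not show how changes near the 2-fold threshold are called. Log2 ratios between stages and folds of medians used a pseudocount of 1 CPM, and the other ratios none. Intervals are exact at the 95% level, cover counting error only, and a share of 0 allows up to 3 counts of the total. Intervals and descriptions were computed in Python 3.11.15 with SciPy 1.17.1. Alternatives covered the normalization, filters, lineage definition, doublets, library term, and each library left out.

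The members and lists were chosen with earlier results of these data known. The text names all members, at most 3 called genes of the list of other S100 genes and partners per lineage (the largest log2 differences), and the 2 genes most like each member; other genes are markers, or were picked with their values in view where the text states it. S100A6 and the list gene S100P were not analysed here.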

Additional observations from a re-analysis of the deposited data

Results flagged for a closer look

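The NB rectum stood apart from the other 5 NB intestinal libraries in 7 values, each with a gap to the next library above the critical share of the range in Dixon's test. In epithelial barcodes these were S100A12 at 1560 CPM (next, 249 CPM in the cecum), S100A9 at 99.1 CPM (next, 4.16 CPM), and S100A8 at 51.7 CPM (next, 4.51 CPM); 10 of the 539 barcodes held 87.2% of the 569 S100A9 UMIs and 83.2% of the 297 S100A8 UMIs. In macrophage barcodes they were S100A4 at 1802 CPM (next, 434 CPM), S100A10 at 715 CPM (next, 314 CPM), and S100A11 at 2069 CPM (next, 1003 CPM), and in stromal barcodes S100A12 at 88.2 CPM (next, 22.4 CPM). A group was examined if its highest value was at least 10 CPM, and 44 groups were. Epithelial S100A8 and S100A9 met this only through the NB rectum itself. Tissues are compared here and are not replicates of a group, so no chance rate can be given for these flags.

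The ratio of AD to NB went opposite ways by at least 2-fold in different tissues for 3 members, and the difference between tissues was not tested. On the log2(CPM + 1) scale S100A10 in leukocytes was 1.32 in duodenum and -1.36 in cecum. In macrophages S100A8 was 1.06 in jejunum and -8.99 in colon, and S100A12 was 1.37 in jejunum and -7.41 in colon. The colon values set 508 CPM of S100A8 and 624.6 CPM of S100A12 in the NB library, held mainly by 4 and 6 barcodes, against 0 and 2.68 CPM in the AD library. The AD jejunum values were likewise held mainly by 5 and 17 of 5250 barcodes.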

How the results depend on the processing

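Lineages were compared within libraries, with library as a term, and the 4 tissues with both stages were set side by side as NB and AD pairs with no test. Of 945 lineage values of single members under the alternatives, 828 kept their direction and side of the threshold, 56 lost the call, 38 gained one, and 23 changed direction. The calls of S100A10, S100A11, and S100A14 in epithelium, S100A9 and S100A14 in leukocytes, and S100A14 in stroma were kept under each alternative run. In epithelium the call of S100A8 was lost without the filter, with any EPCAM or KRT14 barcode, under 10% mitochondrial UMIs, and with the NB libraries alone, that of S100A9 in the last 2 of these, and that of S100A4 without the library term (-0.24). The number of members called in leukocytes was 5 and became 2 without the library term. In macrophages it was 4 and became 0 when any barcode with C1QA was taken and 7 with 2 UMIs of the marker. It became 2 with the NB libraries alone, where 1619 of 12471 genes were called higher and 1018 lower. In the main fit 1542 and 1312 of 12292 genes were called. It became 2 without the library term, and 2 (without the NB colon) to 6 when single libraries were left out. The shares of all genes with single libraries left out are not given, so that range cannot be set against a background. In stroma the number of members called was 5 and became 1 when any barcode with COL1A2 was taken and 1 without the library term. In endothelium it was 3 and became 0 when any barcode with PECAM1 was taken, 5 with 2 UMIs, and 1 without the library term. With 2 UMIs 14.7% of 12320 genes were called higher in endothelium and 15.9% lower, against 11.9% and 14.1% in the main fit. When any barcode with the marker was taken, the count of S100A members with a stage ratio in leukocytes went from 1 to 0, and with 2 UMIs that in macrophages went from 0 to 1. The shares of all genes with such a ratio in these settings are not given, so these counts cannot be set against a background. The cause of these differences was not tested.

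Direction changed without the library term for epithelial S100A8 (1.70) and S100A9 (0.79), macrophage S100A12 (-0.52), leukocyte S100A11 (-0.24), and stromal S100A10 (0.022). With any barcode of the marker it changed for epithelial S100A12 (-0.37), macrophage S100A12 (-0.27), leukocyte S100A11 (-0.015), and endothelial S100A4 (0.45). Leukocyte S100A11, near 0, also changed with DESeq2 (-0.091), without TMM factors (-0.11), without the filter (-0.032), with doublets kept (-0.029), under 10% mitochondrial UMIs (-0.10), from 20 barcodes (-0.23), without the forestomach libraries (-0.023), and over single libraries left out (-0.18 to 0.12). Stromal S100A10 changed without TMM factors (0.13) and with 2 UMIs (0.13). The 6 members of the forestomach comparison stayed at 6 in all 16 alternatives. Those that only left out a library could not make ranges overlap that did not overlap before, so they add no support. The share of all genes under these alternatives is not given. Depth limits low values: with 1 library per tissue and stage no replicate error exists for a tissue, and shares of 0 in small classes allow up to 3 counts of the total. The fit without the forestomach libraries and the fits that leave out 1 library of the forestomach comparison were added after the data had been seen.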

Other observations

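S100A7, the gene of psoriasin in the same chromosomal cluster, had its highest epithelial level in the NB reticulum and omasum (156 and 44.1 CPM), 2 libraries that gave no leukocyte or macrophage sum. It was called higher in leukocytes (log2 difference 3.96) and macrophages (2.22) at low levels, with medians of 1.81 and 0.341 CPM and highest values of 6.62 and 4.58 CPM, and lower in endothelium (-2.88) and stroma (-2.53).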
